A study of Rattus norvegicus with 16 samples.

Results

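Dopamine signalling was examined in the hypothalamus of female rats through 4 genes, chosen by their Ensembl IDs: Th (ENSRNOG00000020410), Drd1 (ENSRNOG00000023688), Drd2 (ENSRNOG00000008428) and Ppp1r1b (ENSRNOG00000028404). They are 4 of the 32883 genes in the count files, and all 4 passed the filter on low counts that left 15366 genes for testing. The selection rule supplies the pairing of these IDs with symbols. A RefSeq gene table (assembly GRCr8) lists the 4 symbols but holds no Ensembl IDs, so it neither supports nor contradicts the pairing.

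RNA was sequenced from 16 female Wistar rats at 21 days of age, in hypothalamic tissue that the labels call MBH-PoA. F1 EDC rats were exposed in utero to an endocrine disrupting chemical (EDC) mixture. It was given in food along the maternal line, starting 2 weeks before gestation and stopping when lactation ended. F3 EDC rats were exposed ancestrally, through the maternal lineage. F1 control rats were exposed in utero to vehicle and F3 control rats ancestrally to vehicle, both through the maternal lineage. Each of the 4 groups has 4 libraries. The sources used here give neither the makeup of the mixture nor whether any rats were littermates, so p-values measure the spread between these samples. All 8 EDC samples carry the word Control in their title, so the groups here follow the source field, with which the treatment field matches. The lane numbers of F1 libraries are not those of F3 libraries, so an effect of generation and one of the sequencing lane cannot be told apart.

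Tyrosine hydroxylase, the product of Th, is the rate-limiting enzyme of dopamine synthesis and marks catecholamine neurons. In the hypothalamus, dopamine neurons of the arcuate nucleus restrain prolactin release from the pituitary through the D2 receptor, encoded by Drd2. The D1 receptor (Drd1) raises cyclic AMP and the D2 receptor lowers it. Ppp1r1b encodes DARPP-32, which inhibits protein phosphatase 1 once protein kinase A has phosphorylated it, and which is especially abundant in striatal projection neurons that carry D1 or D2 receptors.

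Upstream sequence is shown for Th and Drd2. For these 2 genes the promoter sequences at hand (GRCr8) hold the 180 bases before the outermost gene start annotated in RefSeq. They give context for the enzyme gene called in F1 (Th) and for a receptor gene called in F3 (Drd2), as described further on. Capitals mark matches, on either strand, to the cyclic AMP response element TGACGTCA, the GC box GGGCGG and the TATA box TATAAA. The windows are chr1:207508277-207508456 (minus strand) for Th and chr8:58605223-58605402 (plus strand) for Drd2, each printed 5′ to 3′ along the gene:
Th: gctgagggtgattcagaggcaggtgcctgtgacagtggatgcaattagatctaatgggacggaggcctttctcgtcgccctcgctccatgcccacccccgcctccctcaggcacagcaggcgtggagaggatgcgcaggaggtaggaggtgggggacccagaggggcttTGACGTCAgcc
Drd2: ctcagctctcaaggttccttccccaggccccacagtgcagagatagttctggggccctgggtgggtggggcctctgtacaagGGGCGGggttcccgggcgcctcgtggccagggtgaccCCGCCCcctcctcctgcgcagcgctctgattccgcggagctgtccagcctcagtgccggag
The Th window holds a full cyclic AMP response element 11 to 4 bases before the annotated start, a motif found in 1.31% of the 23905 windows of this length. The Drd2 window holds a GC box on each strand, 98 to 93 and 61 to 56 bases before the start, and 24.0% of windows hold at least 1. The TATA box letters were in neither window and in 10.3% of all windows. Each window ends at the annotated start, and bases past it were not searched. These matches are letters in a reference sequence, and no binding was measured here.

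Gene counts per library ran from 5655354 to 35981898, and the counts of single members were much smaller. Drd1 had 29 to 343 reads per library, Drd2 59 to 684, Ppp1r1b 106 to 3020 and Th 365 to 2250. At the lowest count, the 29 Drd1 reads of F3 EDC replicate 4, the exact 95% Poisson interval was 19.4 to 41.6 reads and covers counting error only. Levels are given below as CPM, the count of a gene relative to the TMM-scaled size of its library. They are not divided by transcript length, so levels are compared between groups and not between genes. In bulk tissue, fewer cells of a type and less RNA per cell cannot be told apart. Markers of other brain regions and cell types were not analysed here, because their IDs could not be paired with symbols.

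Th was lower in EDC rats of the F1 generation. The replicates 1 to 4 of F1 control were at 96.8, 83.9, 59.3 and 81.3 CPM, and those of F1 EDC at 49.8, 31.3, 33.7 and 35.4 CPM. Every F1 EDC library lay below every F1 control library. The means were 80.3 ± 15.6 and 37.5 ± 8.34 CPM (SD, n = 4), and the log2 fold change was -1.10 (± 0.29 SE, adjusted p = 0.00675 in edgeR), or 2.14-fold lower. The call held in all 16 fits that left out 1 library (log2 fold change -1.26 to -0.99) and in all 10 other settings. The share of multimapping reads moved with the group: it was 41.8% to 51.6% of reads in F1 EDC libraries and 19.9% to 43.2% in F1 control. With this share as a covariate, the Th log2 fold change was -1.10 (± 0.34 SE, adjusted p = 0.0178 in edgeR).

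In F3 the Th values overlapped. F3 control was at 73.0, 95.03, 67.3 and 128 CPM, and F3 EDC at 71.4, 30.3, 73.9 and 67.7 CPM. Replicate 4 of F3 control stood highest and replicate 2 of F3 EDC lowest, and the other 6 libraries lay between 67.3 and 95.03 CPM. The log2 fold change was -0.57 (± 0.29 SE, adjusted p = 0.345 in edgeR), and without F3 EDC replicate 2 it was -0.35 (edgeR adjusted p = 0.509). Without F3 control replicate 4 it was -0.37 (edgeR adjusted p = 0.552). The EDC effect on Th in F3 minus that in F1 was 0.53 on the log2 scale (± 0.41 SE, adjusted p = 0.3298 in edgeR), so these data do not show that the effect differed between generations.

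Drd1 was lower in F3 EDC rats and not detectably changed in F1 EDC rats. F3 control replicates 1 to 4 were at 9.48, 17.2, 12.7 and 10.4 CPM, and F3 EDC replicates at 5.14, 5.23, 3.74 and 3.14 CPM. The highest F3 EDC library lay well below the lowest F3 control. The means were 12.4 ± 3.46 and 4.31 ± 1.04 CPM (SD, n = 4), and the log2 fold change was -1.51 (± 0.32 SE, adjusted p = 0.0176 in edgeR), or 2.84-fold lower. Among 15366 tested genes, Drd1 ranked 129 by the size of its F3 fold change and 141 by p. Leaving out F3 EDC replicate 3 or F3 control replicate 2 ended the call (edgeR adjusted p = 0.0997 and 0.0695), at log2 fold changes of -1.43 and -1.31.

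Multimapping reads exceeded 40% in 8 libraries: all 4 of F1 EDC, F1 control replicates 3 and 4, F3 control replicate 1 and F3 EDC replicate 4. A fit without those 8 libraries, which left 3 F3 libraries per group and 0 of F1 EDC, gave Drd1 a log2 fold change of -1.49 in F3 (± 0.22 SE, adjusted p = 0.0628 in edgeR), and edgeR called 0 of 15690 genes there (2240 at an unadjusted p under 0.05). The Drd1 difference was about as large without them, while its adjusted p did not pass.

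In F1 the Drd1 values were spread widely in both groups. F1 control was at 7.78, 9.76, 13.8 and 6.07 CPM, and F1 EDC at 13.3, 11.7, 4.98 and 5.65 CPM. F1 EDC replicates 1 and 2 lay among the higher F1 controls, and replicates 3 and 4 lay below all 4 controls. The log2 fold change was -0.10 (± 0.31 SE, adjusted p = 0.814 in edgeR). The difference between the F3 and F1 effects was itself tested: it was -1.41 on the log2 scale (± 0.44 SE, adjusted p = 0.0156 in edgeR), and it passed in all 16 fits without 1 library and all 9 other settings.

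Drd2 was also lower in F3 EDC than in F3 control, at a smaller size. Against F1 control, Drd2 in F3 EDC did not differ detectably (log2 difference -0.03, adjusted p = 0.935 in edgeR). Drd1 in F3 EDC was lower than in F1 control (log2 difference -1.11, adjusted p = 0.0231 in edgeR). Sequencing lane and generation coincide in both of these comparisons. They were not repeated with libraries left out or in other settings. Drd2 in F3 control was at 23.0, 34.4, 25.1 and 26.5 CPM, and in F3 EDC at 17.8, 15.2, 19.6 and 16.6 CPM. The groups did not overlap, and the 4 F3 EDC libraries were close together. The means were 27.3 ± 4.95 and 17.3 ± 1.903 CPM (SD, n = 4), and the log2 fold change was -0.65 (± 0.17 SE, adjusted p = 0.0388 in edgeR), or 1.57-fold lower.

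This Drd2 call was close to the threshold and ended in 10 of 16 fits that left out 1 library, with log2 fold changes from -0.73 to -0.52 over all 16. The edgeR adjusted p was 0.180 without F3 control replicate 2 and 0.0577 without replicate 3. It was 0.0786, 0.111, 0.0963 and 0.0937 without F3 EDC replicates 1 to 4. It was 0.0655, 0.0578, 0.0666 and 0.0575 without F1 EDC replicates 1 to 4, which are in neither group of this comparison but are in the fit. The plot of fold changes with each library left out shows that the size of both F3 differences stayed on one side of 0.

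**Figure D1:**
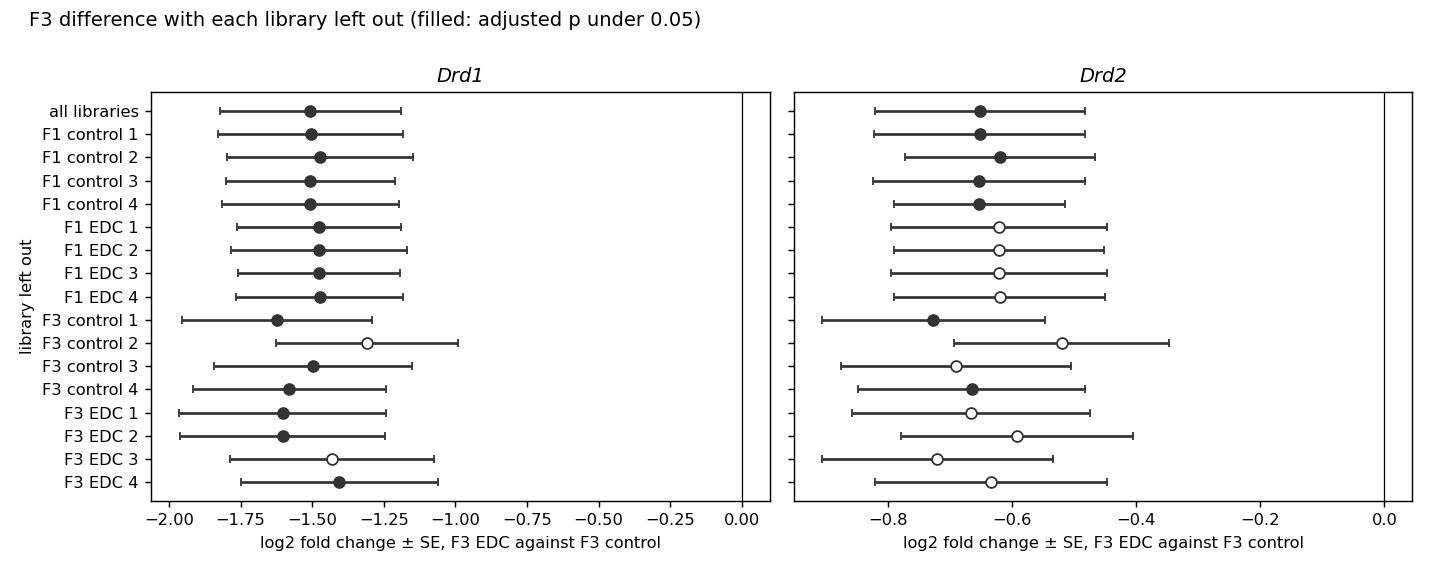
Log2 fold change of F3 EDC against F3 control (x axis, ± SE) for Drd1 and Drd2 in the fit of all libraries and in 16 fits that each left out the library named on the y axis. Filled points have an edgeR adjusted p under 0.05: Drd1 lost the call in 2 fits and Drd2 in 10, and Drd1 stayed between -1.62 and -1.31.

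In F1, Drd2 was at 16.2, 22.9, 19.6 and 10.5 CPM in control and 17.0, 20.0, 17.2 and 15.1 CPM in EDC. All 4 F1 EDC values lay inside the control range. The means were 17.3 ± 5.29 and 17.3 ± 2.01 CPM (SD, n = 4), with a log2 fold change of -0.04 (± 0.17 SE, adjusted p = 0.885 in edgeR). The F3 effect minus the F1 effect was -0.62 (± 0.24 SE, adjusted p = 0.0438 in edgeR). That call ended without any 1 of 10 libraries. The edgeR adjusted p was 0.0791 and 0.0701 without F1 control replicates 1 and 4, and 0.0738, 0.115 and 0.0768 without F1 EDC replicates 1, 2 and 3. It was 0.112 and 0.0533 without F3 control replicates 2 and 4, and 0.0592, 0.0867 and 0.0703 without F3 EDC replicates 1, 2 and 4.

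Ppp1r1b had lower means in EDC in both generations, and neither difference passed the edgeR test. F1 control was at 31.1, 56.6, 67.6 and 18.9 CPM, and F1 EDC at 26.6, 34.5, 14.3 and 9.46 CPM. These groups overlapped, with replicates 3 and 4 of F1 EDC below all controls. The means were 43.6 ± 22.4 and 21.2 ± 11.4 CPM (SD, n = 4), and the log2 fold change was -1.10 (± 0.46 SE, adjusted p = 0.0646 in edgeR). DESeq2 gave an adjusted p of 0.0414 and limma voom with sample quality weights 0.0254, and edgeR gave 0.0284 without F1 EDC replicate 2 and 0.0295 without F1 control replicate 4.

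In F3, Ppp1r1b was at 73.4, 152, 92.3 and 65.2 CPM in control and 41.6, 53.8, 49.3 and 34.1 CPM in EDC. No F3 EDC library reached the lowest F3 control. The means were 95.6 ± 39.1 and 44.7 ± 8.67 CPM (SD, n = 4), and the log2 fold change was -1.09 (± 0.44 SE, adjusted p = 0.227 in edgeR). The limma voom fit with sample quality weights gave an adjusted p of 0.0133, and edgeR passed in none of the 16 fits without 1 library. The F3 effect minus the F1 effect was 0.01 (± 0.62 SE, adjusted p = 0.995 in edgeR), an estimate too wide to show that the effects were alike.

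**Figure D2:**
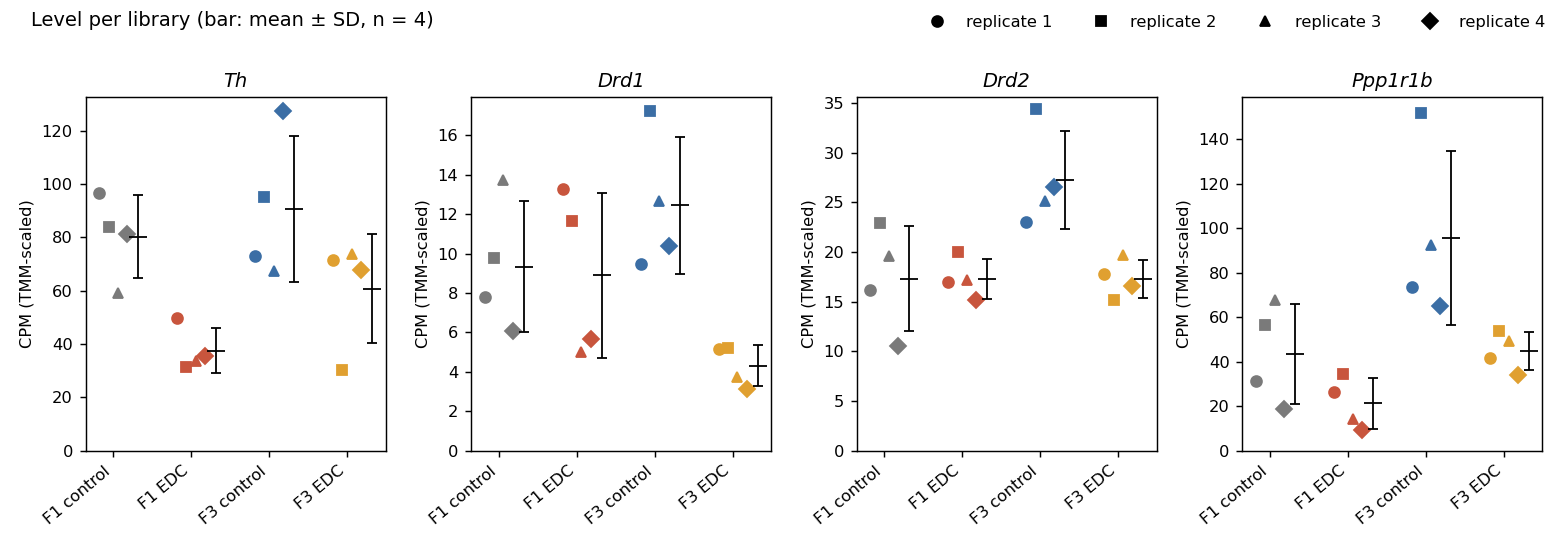
Level of each gene in CPM (y axis, from 0) for each library of the 4 groups, with the mean ± SD (n = 4) beside the points and marker shapes for the replicates. Th separates F1 EDC from F1 control, and Drd1, Drd2 and Ppp1r1b separate F3 EDC from F3 control.

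Counted together, 1 of the 4 genes was called in F1 (Th, lower), where 52.4% of all tested genes were called and 27.0% were called lower. In F3, 2 of 4 were called (Drd1 and Drd2, both lower), where 2.94% of genes were called and 1.87% were called lower. The number of genes called in edgeR was 452 there and fell to 199 and 87 without F3 control replicates 1 and 2, to 240, 258, 34 and 270 without F3 EDC replicates 1 to 4, and to 0 without the libraries over 40% multimapping. The F3 calls of Drd1 and Drd2 both ended without F3 control replicate 2 (edgeR adjusted p = 0.0695 and 0.180). They also both ended without F3 EDC replicate 3 (edgeR adjusted p = 0.0997 and 0.0963). Within groups, Ppp1r1b varied with Drd1 and with Drd2, as described further on, so these genes are not independent counts. The difference between the generations passed for 2 of 4 (Drd1 and Drd2), where 43.6% of genes passed and 21.8% passed with a lower effect in F3. Groups did not overlap for 1 of 4 genes in F1 (Th, lower; 44.0% of all genes) and for 3 of 4 in F3 (all lower; 12.2% of all genes, 7.32% lower). The median log2 fold change of the 4 genes was -0.60 in F1 and -0.87 in F3. No gene lay near the F1 median: Th and Ppp1r1b were both at -1.10, and Drd1 and Drd2 at -0.10 and -0.04. Over all tested genes the medians were -0.0042 and -0.03, and the median absolute values 0.44 and 0.16.

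**Figure D3:**
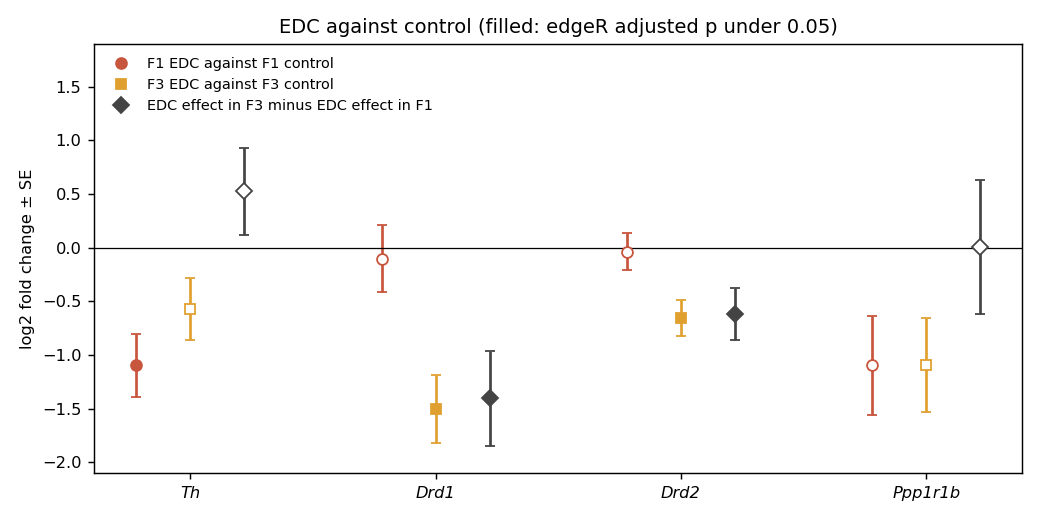
Log2 fold change ± SE (y axis) of EDC against control in F1, in F3, and the F3 effect minus the F1 effect, for the 4 genes (x axis). Filled symbols passed an edgeR adjusted p of 0.05: Th in F1 (-1.10), Drd1 and Drd2 in F3 (-1.51 and -0.65) and in the difference (-1.41 and -0.62).

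The order of the group means differed between the genes. For Th the order from low to high was F1 EDC, F3 EDC, F1 control and F3 control, and no pair of neighbours differed past the threshold (edgeR adjusted p = 0.0609, 0.394 and 0.720). For Drd1 it was F3 EDC, F1 EDC, F1 control and F3 control. Of its neighbours only the lowest pair differed (log2 difference of -1.01 between F3 EDC and F1 EDC, edgeR adjusted p = 0.0119). For Drd2, F3 EDC, F1 control and F1 EDC all had means of 17.3 CPM, and F3 control stood above F1 EDC by 0.66 on the log2 scale (edgeR adjusted p = 0.00230). For Ppp1r1b the order was F1 EDC, F1 control, F3 EDC and F3 control, with no neighbours past the threshold (edgeR adjusted p = 0.0646, 0.990 and 0.227), although the ends differed by 2.20 on the log2 scale (edgeR adjusted p = 0.00134). Between F3 control and F1 EDC, Th, Drd2 and Ppp1r1b passed and Drd1 did not, where 54.9% of all genes passed. Between F3 EDC and F1 control, Drd1 passed (log2 difference -1.11, edgeR adjusted p = 0.0231), where 16.2% of all genes passed. Th, Drd2 and Ppp1r1b did not pass there (edgeR adjusted p = 0.394, 0.935 and 0.990). Sequencing lane and generation coincide in the comparisons of F3 control with F1 EDC and of F3 EDC with F1 control. Neither was repeated with libraries left out or in other settings.

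The control groups of the generations were also compared, although sequencing lane and generation coincide there and the comparison shares its control libraries with the EDC contrasts. Drd2 was higher in F3 control than in F1 control by 0.62 on the log2 scale (± 0.17 SE, adjusted p = 0.00848 in edgeR), 1 of 4 genes where 27.5% of all genes were called and 14.6% were called higher. The lowest F3 control library (23.0 CPM) lay just above the highest F1 control (22.9 CPM), and 13.6% of genes lay higher in this way. Ppp1r1b differed by 1.10 (± 0.44 SE, adjusted p = 0.0861 in edgeR), and DESeq2 and limma voom gave it adjusted p of 0.0358 and 0.0190. Drd1 differed by 0.39 (± 0.31 SE, adjusted p = 0.381 in edgeR) and Th by 0.17 (± 0.29 SE, adjusted p = 0.720 in edgeR).

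Between the EDC groups, only Drd1 passed, 2.02-fold lower in F3 EDC than in F1 EDC (edgeR adjusted p = 0.0119), where 53.5% of all genes passed and 26.5% were called lower. This call ended without F1 EDC replicate 1 (edgeR adjusted p = 0.0638) or replicate 2 (0.0521), the 2 libraries with high Drd1. It also ended with the multimapping share as a covariate (log2 difference -1.04, edgeR adjusted p = 0.0854), a share of 15.7% to 44.4% in F3 EDC against 41.8% to 51.6% in F1 EDC. Drd2 differed by 0.01 (± 0.17 SE, adjusted p = 0.977 in edgeR). Th and Ppp1r1b were higher in F3 EDC by 0.70 and 1.11 (edgeR adjusted p = 0.0609 and 0.0591). Without F3 EDC replicate 2, Th was higher by 0.92 (edgeR adjusted p = 0.00345). The Th difference also passed without F1 EDC replicate 1 (0.0334) or F3 control replicate 4 (0.0489), and that of Ppp1r1b without F1 EDC replicate 2 (0.0227) or F1 control replicate 4 (0.0446).

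Libraries of the same group differed more in these genes than in most genes of similar level. With a single library per rat, differences between rats, in dissection and in library preparation cannot be told apart. The within-group SD of Ppp1r1b was 0.67 on the log2 CPM scale, and only 3 of 2421 other genes within 0.5 log2 CPM of its mean level varied more (median SD 0.14). For Th the SD was 0.43, exceeded by 15 of 2194 such genes (median 0.13). Drd1 varied by 0.50, exceeded by 6.04% of genes of its level, and Drd2 by 0.29, exceeded by 10.3%. Counting error was a small part of this for Ppp1r1b, with 1.82% to 9.71% of the count per library, while CPM spanned 3.65-fold within F1 EDC and 3.58-fold within F1 control.

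Ppp1r1b varied from library to library with Drd1 and with Drd2, while no correlation with Th passed. F3 control replicate 2 was the highest library of its group for Drd1, Drd2 and Ppp1r1b, at 17.2, 34.4 and 152 CPM. F1 control replicate 4 was the lowest of its group for these 3 genes, at 6.07, 10.5 and 18.9 CPM, and it was also the library with the fewest gene counts (5655354) and the most unmapped reads (9.45%). The part of those library measures in its low values was not tested. For Ppp1r1b, replicate 4 was the lowest in 4 of 4 groups and replicate 2 the highest in 3. For Drd2, replicate 2 was the highest in 3 of 4 groups and the lowest in 1. The part of the replicate number in the correlations was not tested.

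Correlations were taken over 16 libraries after the group means of log2 CPM were removed, with permutation within groups and adjustment over the 6 pairs. Drd1 and Ppp1r1b had a Pearson r of 0.879 (two-sided permutation p = 0.00092, adjusted 0.00552) and a Spearman rho of 0.897 (permutation p = 0.00058, adjusted 0.00348). Leaving out the 2 libraries with the most extreme Drd1 gave r = 0.866. Drd2 and Ppp1r1b had r = 0.772 (permutation p = 0.00254, adjusted 0.00762) and rho = 0.712 (permutation p = 0.0101, adjusted 0.0303), and r = 0.709 without 2 libraries. These 2 relations also held without the F1 EDC group (r = 0.884 and 0.830 over 12 libraries, adjusted permutation p = 0.00798 and 0.0471).

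Drd1 and Drd2 had r = 0.545 (permutation p = 0.0384, adjusted 0.0768) and rho = 0.579 (permutation p = 0.0303, adjusted 0.0605), which did not pass. Without 2 libraries r was 0.578 (permutation, adjusted p = 0.0381). Th had r of -0.141 with Drd1, 0.148 with Drd2 and -0.210 with Ppp1r1b (adjusted permutation p = 0.591, 0.591 and 0.571). The rho values were -0.0441, 0.209 and -0.229 (adjusted permutation p = 0.882, 0.561 and 0.561). Among all 15365 other tested genes, Ppp1r1b ranked 3 by its r with Drd1, and Drd1 ranked 5 by its r with Ppp1r1b. Drd2 ranked 45 for Ppp1r1b. For Th the best of these genes, Drd2, ranked 3823. These ranks describe the libraries, whose genes share depth and scaling.

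**Figure D4:**
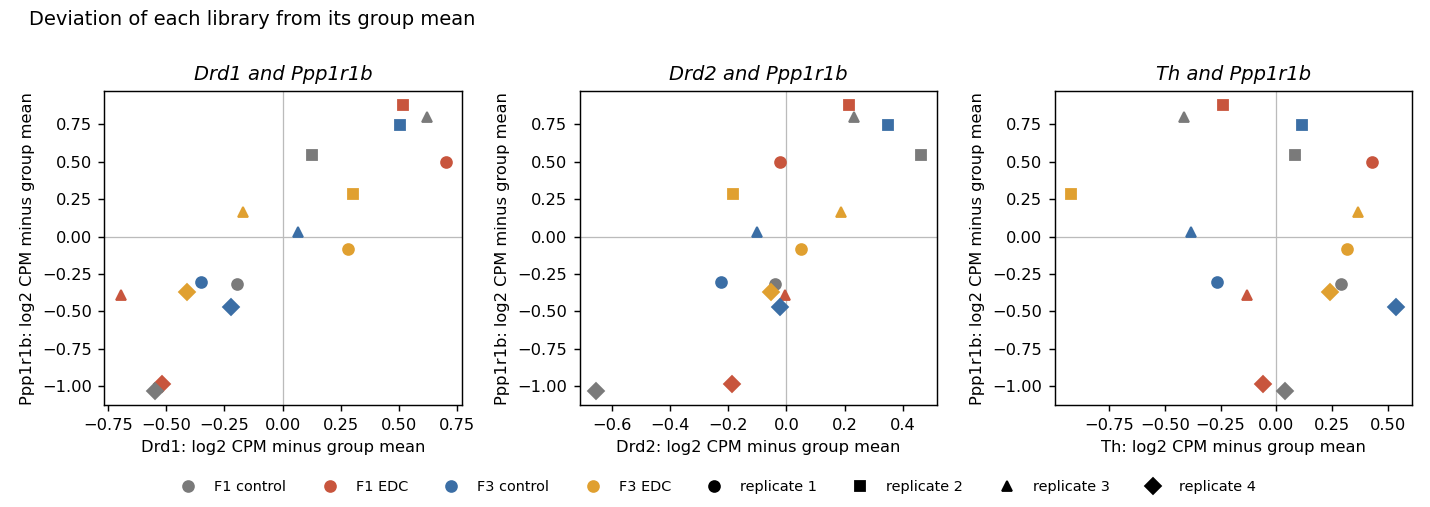
Log2 CPM minus the group mean in each of 16 libraries, for Drd1, Drd2 and Th (x axes) against Ppp1r1b (y axes), with colours for groups and shapes for replicates. Points follow a rising line for Drd1 (r = 0.879) and Drd2 (r = 0.772) and scatter for Th (r = -0.210).

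Ratios of counts within a library do not depend on the scaling factor and were read without a test. In F3 the ratio of Drd1 to Drd2 counts was 0.412, 0.501, 0.505 and 0.392 in control and 0.289, 0.345, 0.190 and 0.190 in EDC. All F3 EDC ratios lay below all controls, so Drd1 was reduced further than Drd2 in these libraries. Relative to Drd2, which was itself lower in F3 EDC, 52.6% of all genes did not overlap and 0.0521% did so by being lower. In F1 the same ratio ran from 0.425 to 0.704 in control and from 0.290 to 0.783 in EDC, with overlap.

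The ratios of Ppp1r1b to the receptor genes did not overlap in F1. Relative to Drd1, Ppp1r1b counts ran from 3.12 to 5.80 in F1 control and from 1.68 to 2.96 in F1 EDC, without overlap (lower in this way for 4.32% of genes). Relative to Drd2 they ran from 1.80 to 3.46 in F1 control and from 0.626 to 1.73 in F1 EDC, again without overlap (12.6% of genes). In F3 both ratios overlapped between EDC and control, at 8.09 to 13.2 against 6.28 to 8.80 for Drd1 and 2.06 to 3.55 against 2.46 to 4.42 for Drd2. The mean log2 difference of Ppp1r1b/Drd1 was -0.91 in F1 (pooled SD 0.39) and 0.49 in F3 (pooled SD 0.25), and whether the generations differed in these ratios was not tested.

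The ratio of Th to Drd2 in F1 was 5.99, 3.66, 3.03 and 7.73 for control rats, against 2.93, 1.57, 1.96 and 2.34 for EDC rats. The groups did not overlap, by a small gap between 2.93 and 3.03. Relative to Drd2, 12.6% of genes were lower in this way in F1. In F3 the Th to Drd2 ratio ran from 2.68 to 4.81 in control and from 2.00 to 4.08 in EDC, and the mean log2 difference was 0.03. The ratios of Th to Drd1 and of Th to Ppp1r1b overlapped between EDC and control in both generations.

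**Figure D5:**
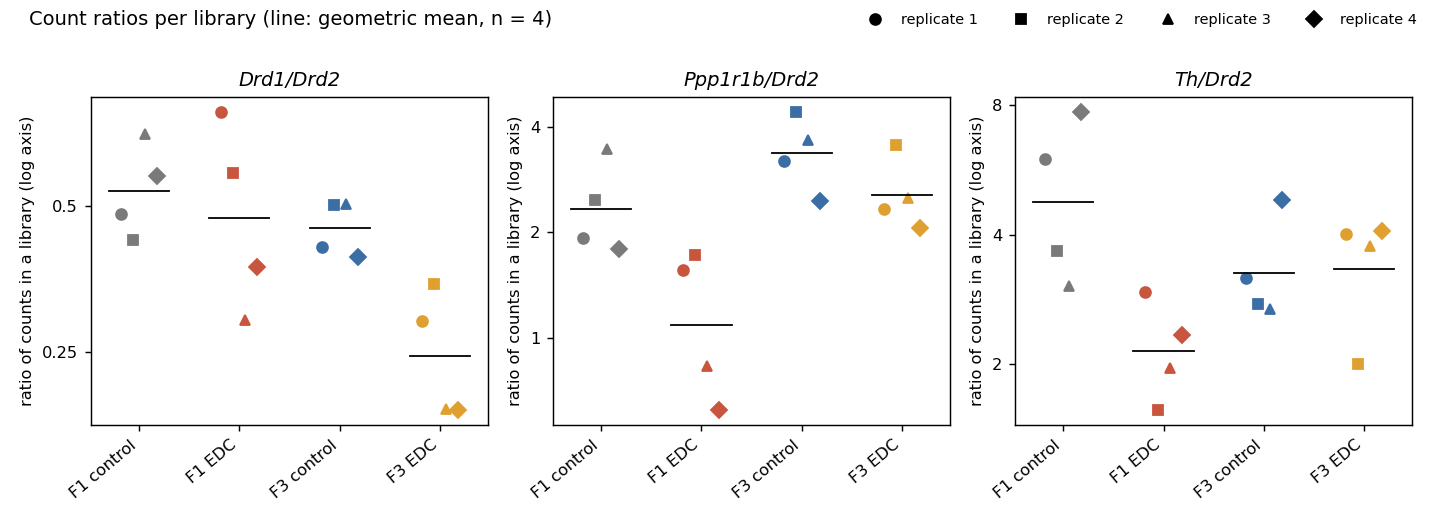
Ratio of counts within each library (y axis, log scale) for Drd1/Drd2, Ppp1r1b/Drd2 and Th/Drd2 in the 4 groups, with the geometric mean (n = 4) as a line. F3 EDC is lowest for Drd1/Drd2 (0.190 to 0.345 against 0.392 to 0.505 in F3 control), and F1 EDC is lowest for Ppp1r1b/Drd2 (0.626 to 1.73).

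The genes most like each member over all 16 libraries were sought by Pearson r of log2 CPM, given here as a description. The closest to Ppp1r1b was ENSRNOG00000017679 (r = 0.930, and 0.841 with group means removed), with means of 3.93, 2.98, 8.26 and 5.49 CPM (groups ordered as F1 control, then F1 EDC, then F3 control, then F3 EDC). It passed in neither generation, with log2 fold changes of -0.44 in F1 (± 0.29 SE, adjusted p = 0.207 in edgeR) and -0.58 in F3 (± 0.27 SE, adjusted p = 0.269 in edgeR). The closest to Th was ENSRNOG00000017302 (r = 0.919, and 0.838 with group means removed), with means of 109.7, 48.3, 116 and 95.2 CPM. That gene had a log2 fold change of -1.18 in F1 (± 0.37 SE, adjusted p = 0.0167 in edgeR), and had a log2 fold change of -0.28 in F3 (± 0.36 SE, adjusted p = 0.755 in edgeR). For Drd1 and Drd2 the highest r values were 0.866 and 0.853. The deposited files do not pair these IDs with names.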

How the data were processed

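RNA of 16 hypothalamus samples was sequenced with single reads of 100 cycles, per the labels' protocols. Build rn6, Trimmomatic 0.33 and TopHat2 2.1 are named, without roles, in the submitters' processing notes. The deposited files hold raw counts per gene in the layout of STAR (version: not given in the sources used here), with 32883 genes and 4 summary lines, which stayed out of library sizes. Column 4 (stranded) was used, as it held at least 52.5 times the counts of column 3. Gene counts per library ran from 5655354 to 35981898.

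TMM-scaled counts went into edgeR 4.0.16 (R 4.3.3), with the quasi-likelihood test with group means over all 16 libraries, filterByExpr (count minimum 10) and Benjamini-Hochberg adjustment over 15366 genes at 0.05, two-sided. The SE is the absolute log2 fold change over the square root of F. Correlations used log2 CPM (prior count 2) and 100000 resamples. The procedure was tested on simulated data. Alternatives included DESeq2 1.42.0 and limma 3.58.1. Over all tested genes, replicate numbers did not pair the samples: same-numbered libraries had deviations with r from -0.108 to 0.0884.

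The members and lists were chosen with earlier results of these data known. The 4 genes were always named. For genes most alike, the rule allowed 1 ID per member but at most 2 that fell, so the 2 with the highest r are given. Planned pathway and marker lists were left out, since 0 IDs could be paired with symbols.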

Additional observations from a re-analysis of the deposited data

Results flagged for a closer look

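Among 40 groups of 4 values tested for a single stray sample (the CPM of the 4 genes and the 6 log2 count ratios in each group), 2 had a gap over range above Dixon's critical value for 4 samples, and chance flags about 1 in 20. Both concern F3 EDC replicate 2: Th was 30.3 CPM there (gap over range 0.859), against 67.7 to 73.9 CPM in the other libraries of its group, and its Th/Drd2 log2 ratio was 0.998 (gap over range 0.885). The ratios use the same counts as the CPM values, so the 40 tests are not independent. Both flags rest on the same low Th count and cannot be set against the chance rate.

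The EDC effect in F3 minus that in F1 passed the edgeR test for Drd1 (-1.41 on the log2 scale, adjusted p = 0.0156) and Drd2 (-0.62, adjusted p = 0.0438).

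Reads on the strand opposite to the gene were few. Drd1 had 4 in F1 EDC, all in replicate 3, against 0 in F1 control, and 19 in F3 control against 0 in F3 EDC. Drd2 had 5 in F3 EDC, all in replicate 4, against 0 in F3 control.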

How the results depend on the processing

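Fits without 1 library gave these ranges of the log2 fold change. In F1 they were -1.26 to -0.99 for Th, -0.36 to 0.14 for Drd1, -0.19 to 0.14 for Drd2 and -1.45 to -0.82 for Ppp1r1b. In F3 they were -0.69 to -0.35, -1.62 to -1.31, -0.73 to -0.52 and -1.23 to -0.78. For the F3 effect minus the F1 effect they were 0.41 to 0.75, -1.65 to -1.12, -0.76 to -0.47 and -0.27 to 0.39. For F3 control against F1 control they were -0.029 to 0.29, 0.20 to 0.64, 0.48 to 0.81 and 0.79 to 1.38. For F3 EDC against F1 EDC they were 0.59 to 0.92, -1.15 to -0.71, -0.061 to 0.13 and 0.87 to 1.50. No count ratio difference moved by over 1 SD in fits without 1 library or with unstranded counts.

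Calls ended in F3 for Drd2 with upper quartile factors (-0.62, edgeR adjusted p = 0.0548) and with genes kept only from a mean log2 CPM of 1 (-0.62, edgeR adjusted p = 0.0509). Without the libraries over 40% multimapping, which left 3 F3 libraries per group, Drd1 (-1.49) and Drd2 (-0.68, edgeR adjusted p = 0.0932) did not pass. With the multimapping share as a covariate, Drd1 in F3 EDC against F1 EDC did not pass (-1.04, edgeR adjusted p = 0.0854).

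Ppp1r1b passed in F1 with DESeq2 (-1.02) and limma voom (-1.16), in F3 with limma voom (-1.07), between controls with DESeq2 (1.13) and limma voom (1.14), and between EDC groups with DESeq2 (1.07), limma voom (1.23) and the stricter filter (1.13). Th passed between EDC groups with DESeq2 (0.69) and the stricter filter (0.72). With the replicate block, Ppp1r1b passed in F1 (-1.05, edgeR adjusted p = 0.0148), between controls (1.15) and between EDC groups (1.16), Drd2 in F1 turned to 0.00074, and the block changed no other call. With it, 7939 genes passed in F1 and 387 in F3. Replicate 4 was the lowest for Ppp1r1b in 4 of 4 groups, although the numbers share no stated batch.

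Among settings other than leaving out 1 library and the block, signs turned for these values, none of which passed: Drd2 in F1 with the multimapping covariate (0.067) and upper quartile factors (0.0059), and Drd2 between EDC groups with DESeq2 (-0.00067), limma voom (-0.0040), the covariate (-0.18) and upper quartile factors (-0.043). The Ppp1r1b difference between generations was -0.064 with DESeq2, -0.0019 with RLE factors, -0.00031 without a filter and -0.10 with the covariate. The r of Th and Drd1 was 0.160 without the 2 most extreme libraries, and that of Drd1 and Drd2 passed there (0.578). The causes were not tested. The number of genes called in F3 was 452, 775 with DESeq2, 1508 with limma voom and 34 to 553 without 1 library. At 29 to 343 reads, Drd1 has the least depth of the 4 genes.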
